A study of Xenopus laevis with 3 samples.

Results

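MicroRNA miR-146b was followed through 3 small RNA libraries of dorsal *Xenopus laevis* gastrulae. Its rows are those that bear a miR-146 name of *Xenopus laevis* (xla) or *Xenopus tropicalis* (xtr) in the deposited table, which makes 3 of 1985 rows and 3 of the 175 with a *Xenopus* name. The miRNA was selected on its normalized counts in these same libraries, as the one miRNA outside the mir-427 locus that was at least 2-fold lower in both depleted libraries. Its ratios to the uninjected library are therefore a description and not a test. A further 9 miR-146 rows carry the name of another animal, and they are given apart.

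The Lhx1-AS library came from embryos given 400 pg of an antisense oligonucleotide against *lhx1*, a transcription factor gene of the organizer and of kidney progenitors. The Fry-MO library came from embryos given 20 ng of a morpholino against *fry*, whose protein works with Lhx1. Both were injected into the 2 dorsal cells at the 4-cell stage, and the third library came from uninjected embryos. At stage 10.5, 30 dorsal explants from 3 experiments were pooled for each library. There was 1 library per condition, so the data hold no spread between replicates and allow no p-value. The depleted embryos were also the injected ones, picked by a red tracer, and a library with a control oligonucleotide was not analysed here. An effect of depletion cannot be told apart from one of injecting and picking. The listed miRNAs held 56026 reads in the Lhx1-AS library, 108041 in the Fry-MO library and 133894 in the uninjected library. The early embryo miRNA miR-427, which marks the start of zygotic transcription, was the most read *Xenopus* row in each of them, with 15455, 13081 and 38438 raw reads. Its relative miR-428 had 87, 27 and 31 raw reads.

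In mammals, miR-146a and miR-146b are known from immune cells. Their transcription follows NF-kB signalling, and they dampen that pathway by pairing with the messages of the signalling proteins TRAF6 and IRAK1. A miRNA is cut from a hairpin that can give a 5p and a 3p strand, and it chooses its targets mainly through its seed, bases 2 to 8 from the 5′ end. Nothing in these libraries measures NF-kB signalling or targets.

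The sequences come first because the most read miR-146 forms, all from the 5p strand, share their 5′ end and differ near the 3′ end. They are shown as deposited, as DNA letters 5′ to 3′, with the seed in capitals. The suffix of a name gives how the deposited sequence differs from the listed miRNA, as bases gained (+) or missing (-) at the left (L) or right (R) end and as substitutions (ss). The 3 *Xenopus* rows are followed by the most read forms with another name, after zebra finch (tgu) and gorilla (ggo), and by one after medaka (ola). Forms are called by those animals below, though some differ from the animal's listed miRNA, as the suffix shows.

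xtr-miR-146b: tGAGAACTgaattccatggact
xtr-miR-146a_R-6: tGAGAACTgaattcca
xtr-mir-146b-p3_1ss9TG: gtccacagggttcagtgctcca
tgu-miR-146c_R+2_2ss18GA21TC: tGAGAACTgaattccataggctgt
ggo-mir-146a-p5_1ss23GT: tGAGAACTgaattccatgggttt
ola-miR-146a-5p_R-2: tGAGAACTgaattccatagatgg

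The seed of miR-146b stood at bases 2 to 8 of 8 listed rows, and all 8 are miR-146 rows. Its first 17 bases were held by 9 rows. Beyond them, the zebra finch form differed from xtr-miR-146b by G18A and A20G over its 22 bases, and the gorilla form by A20G and C21T. The medaka form differed by G18A, C21T and T22G. Positions are counted from 1 at the 5′ end of xtr-miR-146b, whose base is given first. None of these differences lies in the seed. The 16 bases of xtr-miR-146a_R-6 stood in 10 rows, all of them miR-146, so a read of that length cannot be given to any one of them. All of xtr-miR-146b stood in 1 further row, the longer tgu-miR-146a-5p_R+2. The raw reads of xtr-miR-146b are not whole, and the fractions in the table read as reads divided among rows they fit equally. The longer row itself had only 0.5 raw reads with Lhx1-AS, 0 with Fry-MO and 1 in uninjected tissue.

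The 22-base miR-146b carried nearly all reads of the *Xenopus* miR-146 rows and had fewer normalized counts in both depleted libraries. It had 133.5 raw reads in the Lhx1-AS library, 101.5 in the Fry-MO library and 340.5 in the uninjected library. After the authors' normalization these were 172.6 counts with Lhx1-AS (counting interval 144.6 to 204.5), 115.7 with Fry-MO (94.3 to 140.6) and 369.9 in uninjected tissue (331.6 to 411.3). The uninjected library was the highest and its interval did not overlap either of the others, and the 2 depleted libraries did not overlap each other. These are exact Poisson intervals at a level of 95%. They cover counting error only, and reads divided among rows are not independent counts.

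As a ratio of normalized counts to the uninjected library, miR-146b was at 0.467 with Lhx1-AS (interval 0.379 to 0.572) and at 0.313 with Fry-MO (0.248 to 0.392). These ratio intervals are Clopper-Pearson intervals from the raw reads. Both ratios share the 1 uninjected library, so a low or high draw of that library moves them together. Set directly against the Lhx1-AS library, the Fry-MO library had 0.671 times its level (0.513 to 0.875). That value depended on the scaling, as it was 0.317 scaled to listed reads without the mir-427 hairpin and 0.877 scaled to mappable reads, where its interval held 1 (0.670 to 1.14).

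A ratio of at most 0.5 was read as 2-fold lower, in *Xenopus* rows with at least 10 raw reads in 1 of the 2 libraries compared. With Lhx1-AS, 5 of 79 rows were called lower, a background of 6.33%, and miR-146b had the 4th lowest ratio. With Fry-MO, 9 of 93 rows were called lower, a background of 9.68%, and miR-146b had the 3rd lowest. Of 76 rows compared in both, 4 were called lower in both, and the other 3 are products of the mir-427 hairpin. Over all rows compared, the Lhx1-AS library had a median ratio of 1.28 and the Fry-MO library one of 4.04. In the Fry-MO library a ratio under 1 was itself uncommon, seen in 21 of 93 rows.

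**Figure D1:**
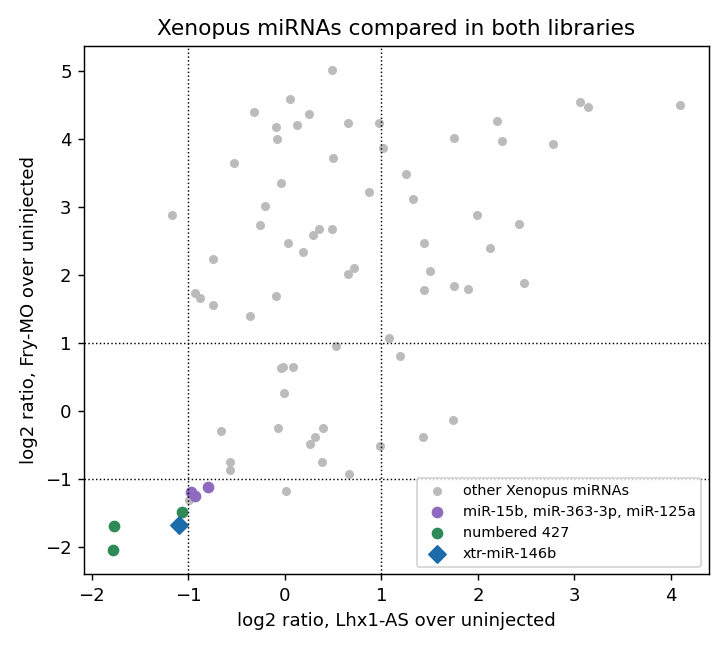
Log2 ratios to the uninjected library with Lhx1-AS (x axis) and Fry-MO (y axis) for the 76 *Xenopus* miRNAs compared in both, 1 point per miRNA, with dotted lines at 2-fold. MiR-146b (diamond) sits with the 3 rows of the mir-427 hairpin in the lower left corner, the only 4 points at or past 2-fold lower on both axes.

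The values near the threshold show how narrow the choice was in the Lhx1-AS library. The row just inside 0.5 there was miR-427 at 0.479 (0.470 to 0.488), and the row just outside was mir-16a-p3 at 0.504 (0.225 to 1.05). With Fry-MO the row just inside was miR-125a at 0.460 (0.307 to 0.677), and the row just outside was mir-302-p5, from the hairpin of an early embryo miRNA, at 0.525 (0.239 to 1.09). The interval of miR-146b held 0.5 with Lhx1-AS and lay below it with Fry-MO.

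The lower counts depended on how the libraries were scaled. The Lhx1-AS ratio crossed 0.5 under several scalings, and the Fry-MO ratio under the scaling to miR-427 alone. MiR-427 was itself lower in both depleted libraries. As a share of the listed reads, miR-146b held 0.238% with Lhx1-AS (0.1996% to 0.282%), 0.0939% with Fry-MO (0.0766% to 0.114%) and 0.254% in uninjected tissue (0.228% to 0.283%). The Lhx1-AS and uninjected intervals overlapped, while the Fry-MO share lay below both. Against the uninjected share, the Lhx1-AS share stood at 0.937 (0.761 to 1.15) and the Fry-MO share at 0.369 (0.293 to 0.462). The shares were also taken without the 3 rows of the mir-427 hairpin, and the ratio was then 0.890 with Lhx1-AS (0.723 to 1.09) and 0.282 with Fry-MO (0.224 to 0.353). When the reads of *Xenopus* rows set the scale, the ratios were 0.785 (0.637 to 0.961) and 0.261 (0.207 to 0.327). With Lhx1-AS the ratio stayed at or under 0.5 with edgeR's TMM scaling (0.421), with DESeq2's median of ratios (0.439) and in raw reads (0.392), and lay at 0.505 when scaled to the mappable reads.

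**Figure D2:**
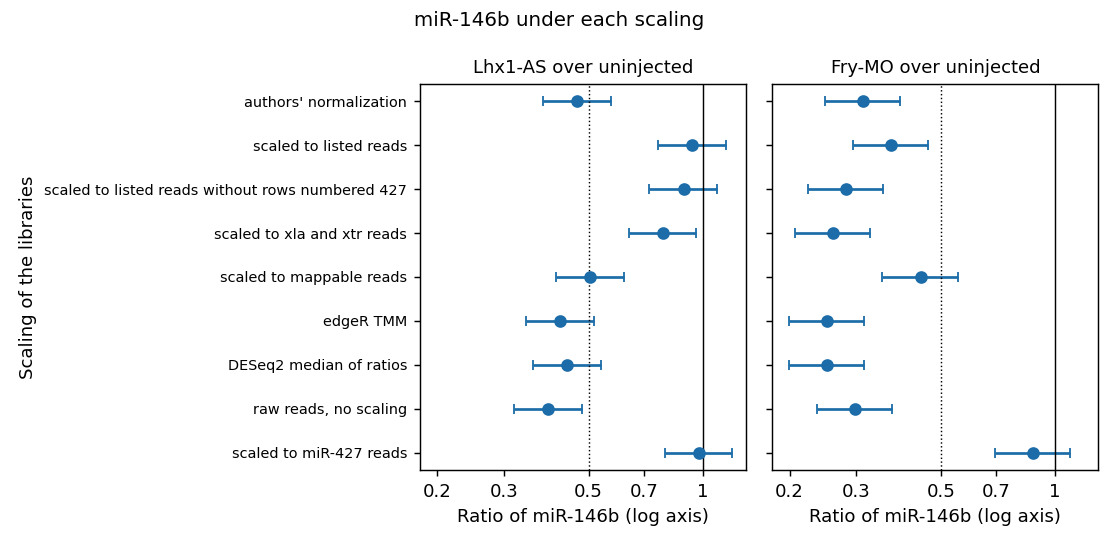
Ratio of miR-146b to the uninjected library on a log axis, with Lhx1-AS (left) and Fry-MO (right), under each scaling of the libraries (rows), with Clopper-Pearson counting intervals as bars, the solid line at 1 and the dotted line at 0.5. With Lhx1-AS the points run from 0.392 to 0.975. With Fry-MO each point lies under 0.5 but that scaled to miR-427 reads, at 0.876. MiR-427 was itself lower in both depleted libraries.

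The rank of miR-146b among *Xenopus* rows needs no scaling, but a rank also falls where other rows rise, as most did with Fry-MO. MiR-146b was the 23rd most read of 149 rows with reads in the Lhx1-AS library. It was the 46th of 148 in the Fry-MO library and the 9th of 141 in the uninjected library. Its neighbours in the uninjected library show how differently miRNAs of the same level moved. The next above it, miR-181a-5p, had 370.4 normalized counts with Lhx1-AS, 6263 with Fry-MO and 392.7 in uninjected tissue. The next below it, miR-100, had 587.0, 1540 and 358.5. Both lay above miR-146b in each depleted library, though the 3 were at nearly the same level in uninjected tissue.

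A measure that no scaling touches is the number of miR-146b reads for every 1000 reads of miR-427 in the same library. It was 8.64 with Lhx1-AS, 7.76 with Fry-MO and 8.86 in uninjected tissue. Relative to miR-427, miR-146b in the Lhx1-AS library stood at 0.975 of its uninjected value (0.792 to 1.19) and in the Fry-MO library at 0.876 (0.695 to 1.10), and both intervals held 1. The counting error of miR-427 itself, which is small at its depth, is left out. MiR-427 was itself at 0.479 of its uninjected level with Lhx1-AS and at 0.357 with Fry-MO. A ratio near 1 to a row that is also low cannot show whether either was lower. This measure was added after the values had been seen.

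Among 73 other *Xenopus* rows whose raw reads came to 50 or more in all, miR-427 was the nearest to miR-146b in its pair of log2 ratios, at a distance of 0.19 on the log2 scale (pseudocount of 1 normalized count). Next were miR-15b at 0.47, miR-363-3p at 0.49, miR-125a at 0.64 and mir-427-p5 at 0.67. These points share their libraries, the uninjected one above all, and the distance rests on 3 values per row. Their sequences, with bases 2 to 8 in capitals, show that the 5 neighbours have other seeds than miR-146b, and 0 of the 5 shared it.

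xla-miR-427_R+1_1ss10TC: aAAGTGCTtcctgttttgggcgt
xtr-miR-15b_R-1: tAGCAGCAcatcatgatttgc
xtr-miR-363-3p_R+2: aATTGCACggtatccatctgtaa
xtr-miR-125a_R+1: tCCCTGAGacccttaacctgtga
xla-mir-427-p5: aCCCAAAAcggggctctctct

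MiR-15b, of the family that tunes Nodal signalling in the *Xenopus* gastrula, had 54.3 normalized counts with Lhx1-AS, 43.3 with Fry-MO and 103.2 in uninjected tissue. MiR-363-3p had 294.8, 253.1 and 580.0, and miR-125a 55.6, 44.5 and 96.7. These 3 were picked for ratios near those of miR-146b, so lying below the uninjected library in both depleted libraries follows from that choice. Their ratios were 0.526, 0.508 and 0.575 for Lhx1-AS and 0.420, 0.436 and 0.460 for Fry-MO. Another row named miR-363, xla-miR-363_R+1, had log2 ratios of 0.389 with Lhx1-AS and -0.749 with Fry-MO. It thus lay above the uninjected library with Lhx1-AS. The mir-427-p5 strand had 2344, 2465 and 7990 counts, and mir-427-p3 116.4, 96.9 and 400.8. All 3 products of the mir-427 hairpin, like miR-146b, were highest in the uninjected library.

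The other *Xenopus* miR-146 rows had few reads or none. The 16-base xtr-miR-146a_R-6 had 2.5 raw reads with Lhx1-AS, 11.5 with Fry-MO and 6.5 in uninjected tissue. Its ratios were 0.458 (0.0617 to 2.23) with Lhx1-AS, where it had too few reads to be compared, and 1.86 (0.653 to 5.82) with Fry-MO. At this depth no difference from the uninjected library was detectable in either. The opposite strand, xtr-mir-146b-p3, had 0 reads in each library, for which a limit of 3 reads was taken, or 3.88 normalized counts with Lhx1-AS, 3.42 with Fry-MO and 3.26 in uninjected tissue. The upper ends of the wider 2-sided Poisson intervals were 4.77, 4.21 and 4.01 normalized counts. Reads of the *Xenopus* hairpin were thus detected from its 5p strand only. Of the 3 members, 1 passed the filter on reads for the Lhx1-AS comparison and 2 for the Fry-MO one.

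Among the forms of miR-146 with another name, the only one with enough reads in both comparisons lay above the uninjected library in both. The form named after zebra finch, tgu-miR-146c, had 69 raw reads with Lhx1-AS, 503 with Fry-MO and 28 in uninjected tissue. In normalized counts these were 89.2, 573.6 and 30.4. Both depleted libraries lay above the uninjected one, and the Fry-MO library far above. With Lhx1-AS its ratio was 2.93 (1.87 to 4.73), and with Fry-MO it was 18.9 (12.9 to 28.7). The gorilla form, ggo-mir-146a-p5, had 3, 48.5 and 3 raw reads, and its ratio with Fry-MO was 16.97 (5.47 to 85.2). It passed the filter on reads only through the Fry-MO library, so it could only come out above the uninjected library there. Among rows of other names, a 2-fold higher level was called for 68 of 133 with Lhx1-AS (51.1%) and for 115 of 168 with Fry-MO (68.5%). Their median ratios were 2.38 and 7.87, and rows of predicted sequences were left out. A higher level was thus the common direction among rows of other names. Among *Xenopus* rows, 32.9% were called higher for Lhx1-AS, and for Fry-MO 68.8% were.

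**Figure D3:**
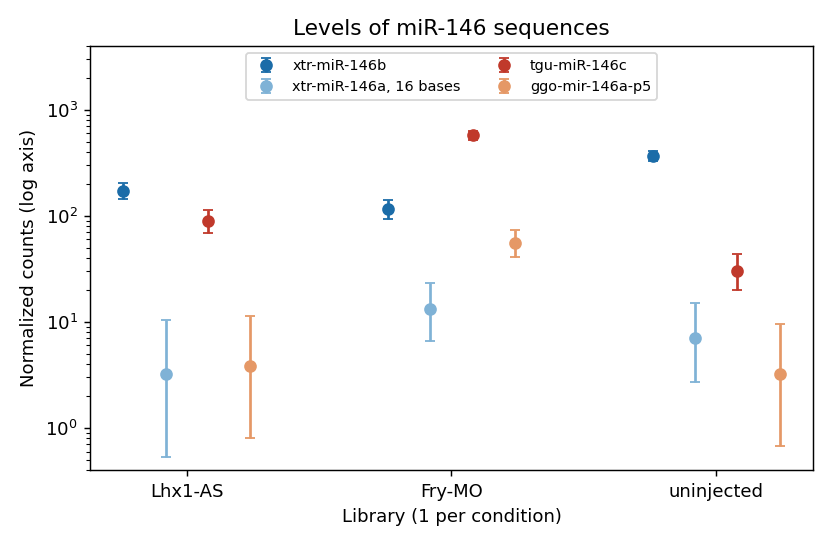
Normalized counts (log axis) of the 4 miR-146 sequences with at least 10 raw reads in a library, by library, with exact Poisson counting intervals as bars. The 22-base xtr-miR-146b is highest in the uninjected library at 369.9, while tgu-miR-146c is highest in the Fry-MO library at 573.6.

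The remaining 7 rows of other names held at most 4.25 raw reads in any library. The medaka form had 2.5 raw reads with Lhx1-AS, 3.75 with Fry-MO and 2 in uninjected tissue, and a carp form with the same letters and 1 more base at its left end had 2.5, 4.25 and 2.5. The lamprey and platypus forms had the same fractions of a read in each library, 0.125, 1.37 and 0.0714. The chicken form had 0.0588, 1.06 and 0 raw reads. The longer zebra finch form that holds all of xtr-miR-146b had 0.5, 0 and 1, and a carp 3p form had none.

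With one form lower and another higher, the make-up of the miR-146 reads differed between the libraries. Of all reads in miR-146 rows, xtr-miR-146b took 62.4% with Lhx1-AS (55.6% to 69.0%), 15.01% with Fry-MO (12.4% to 17.9%) and 88.8% in uninjected tissue (85.2% to 91.7%). The form tgu-miR-146c took 32.3%, 74.4% and 7.30%. These shares come from within a library and do not depend on its scaling. None of the 3 intervals of xtr-miR-146b overlapped another.

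**Figure D4:**
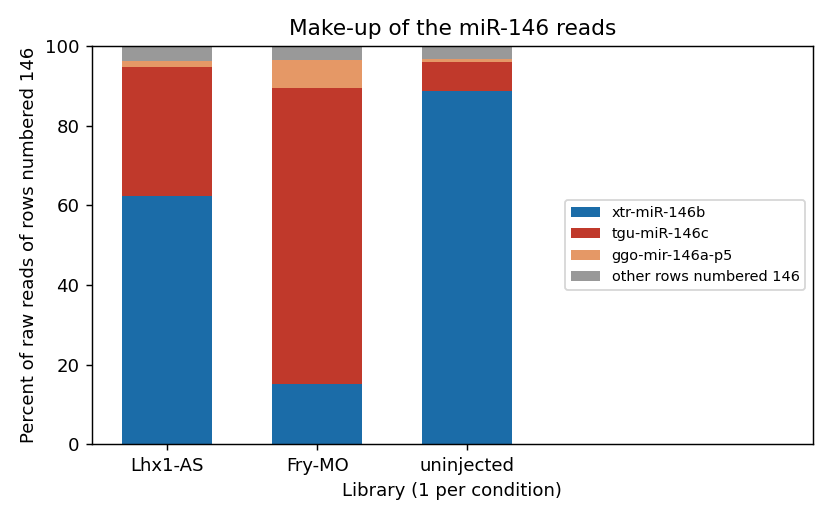
Percent of the raw reads of all 12 miR-146 rows that each form took, as stacked bars by library. The xtr-miR-146b part is 62.4% with Lhx1-AS, 15.01% with Fry-MO and 88.8% in the uninjected library, and tgu-miR-146c takes most of the rest.

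Summed over all 12 rows, miR-146 had 213.8 raw reads with Lhx1-AS, 676.3 with Fry-MO and 383.6 in uninjected tissue, or 276.4, 771.2 and 416.7 normalized counts. The sum was below the uninjected library with Lhx1-AS, at a ratio of 0.663 (0.559 to 0.786), and above it with Fry-MO, at 1.85 (1.63 to 2.10). As a share of listed reads the sum was 0.382% with Lhx1-AS (0.332% to 0.436%), 0.626% with Fry-MO (0.580% to 0.675%) and 0.287% in uninjected tissue (0.259% to 0.317%), so on that scale both depleted libraries lay above. The Lhx1-AS ratio of the sum was then 1.33 (1.12 to 1.58), and its direction turned with the scaling. With Fry-MO the sum lay above the uninjected library under every scaling tried, from 1.48 with TMM to 5.18 scaled to miR-427. The direction for miR-146 in the Fry-MO library thus turned with the rows counted. All of the 12 rows but the 2 3p forms hold the seed letters, in 8 of them at bases 2 to 8. A name tells which species' listed miRNA a sequence was matched to, which need not be where the RNA was made. The match can be inexact, as tgu-miR-146c carries 2 substitutions against the zebra finch miRNA. Its first 22 bases also stand in the platypus and lamprey rows. Grouped by the letters at positions 18 to 20, the 4 rows with the letters of tgu-miR-146c there had ratios of 2.93 with Lhx1-AS and 18.9 with Fry-MO, and the 2 rows with those of xtr-miR-146b 0.467 and 0.312.

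Other values were, like the tgu-miR-146c form, higher in both depleted libraries. Rows named after placental mammals took 12.6% of the listed reads with Lhx1-AS, 13.9% with Fry-MO and 1.97% in uninjected tissue. Rows were counted there by name alone, so tgu-miR-146c lies outside them whatever other sequences it matches. In normalized counts, which are another scale than shares of listed reads, tgu-miR-146c was 6.43 times as high with Fry-MO as with Lhx1-AS. The part of these placental-named rows in the level of any miR-146 form was not tested. The 3 *Xenopus* rows whose ratios were nearest to those of tgu-miR-146c, picked after its values were seen, were miR-191, miR-143 and miR-27a. They had ratios of 3.38, 1.97 and 4.58 with Lhx1-AS and 16.2, 18.8 and 19.2 with Fry-MO.

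Blood cells are a known source of miR-146 in mammals, so the miRNAs of blood were set beside it. Of 6 rows on that list 3 had enough reads, and with Fry-MO all 3 were called higher, while none was past 2-fold with Lhx1-AS. Over all *Xenopus* rows compared, 68.8% were called higher with Fry-MO and 32.9% with Lhx1-AS, so 3 of 3 with Fry-MO does not set the list apart. MiR-142, of all blood lineages, had 184.9 normalized counts with Lhx1-AS, 3133 with Fry-MO and 169.5 in uninjected tissue. MiR-451 of red cells had 40.1, 720.6 and 57.6, and its neighbour miR-144 11.6, 122.0 and 11.9. Summed over the 6 rows, the level was 249.5, 3990 and 244.4. The list had a median log2 ratio of -0.04 with Lhx1-AS and of 3.62 with Fry-MO, beside 0.33 and 2.02 over all rows compared. With Fry-MO the 3 blood miRNAs compared moved in the same direction as tgu-miR-146c and opposite to xtr-miR-146b. With Lhx1-AS none of the 3 was past 2-fold, and tgu-miR-146c had a ratio of 2.93. In bulk tissue, more cells of a type and more RNA per cell cannot be told apart. Cell types were not counted in these dorsal gastrula explants, so the data do not show whether they held any blood cells. The part of blood cells in these levels was not tested, and neither was that of the placental-named rows.

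A second list held miRNAs known with miR-146 from mammalian innate immune responses: miR-155, miR-132, miR-212, miR-9, miR-21, miR-147, miR-125b and miR-223. *Xenopus* rows were analysed here for 5 of the 8, with 7 rows, and 2 rows had enough reads in each comparison. None was called lower, which was uncommon among all *Xenopus* rows too (6.33% with Lhx1-AS and 9.68% with Fry-MO). Moreover, mir-212-p5 passed the filter on reads only through the Lhx1-AS library, and miR-9a-5p only through the Fry-MO library. Neither could be called lower there, so miR-125b was the only row compared that could have been. MiR-125b had 182.9 normalized counts with Lhx1-AS, 630.6 with Fry-MO and 72.8 in uninjected tissue, with ratios of 2.51 (1.87 to 3.41) and 8.66 (6.71 to 11.3). The strand mir-212-p5 had 26, 9 and 2 raw reads and was compared with Lhx1-AS only, at 15.5 (3.87 to 134.5). MiR-9a-5p, a neural miRNA, had 2.67, 12.3 and 3.33 raw reads and a ratio of 3.88 (1.10 to 19.3) with Fry-MO. MiR-223 of myeloid cells had 0, 7 and 2 raw reads and miR-132 had 4, 3 and 2, too few to be compared. The list's median log2 ratio was 2.38 for Lhx1-AS and 2.40 for Fry-MO, beside 0.33 and 2.02 over all rows compared. These medians rest on 2 rows each, of which only miR-125b could have come out lower, so they do not show a direction of the list. For Fry-MO the median was 1.501 without the filter on reads and 1.89 with a pseudocount of 10.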

How the data were processed

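Small RNA was sequenced from 3 pooled libraries, grouped by their titles. Per its methods, the study trimmed and length-filtered reads and matched them with ACGT101-miR to miRBase entries and to genomes of *X. laevis* and other chordates. For release and genome builds, the sources used here give none. The authors deposited raw reads per sequence, which are estimated counts: 488 rows have a value that is not whole, with fractions that read as reads divided among sequences. The authors also deposited a normalized signal, which is raw reads over a size parameter for the library (0.773 for Lhx1-AS, 0.877 for Fry-MO, 0.921 for uninjected) of unknown derivation, with 0 written as 0.001. Library totals of mappable reads came from the deposited summary. Of an index running to 1987, 2 lines were not analysed here.

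Ratios used normalized counts, with Clopper-Pearson intervals (95%) from raw reads, a minimum of 10 reads and a fold of 2. Intervals are exact only for whole reads. With 1 library per condition no test was run. Read counts without molecular identifiers are not independent molecules. The member and the lists were chosen with earlier results of these data known. The rows named were all miR-146 rows, the *Xenopus* miR-427 rows, the 5 nearest in pattern, the next in level, those at the threshold and list members with at least 10 reads. MiR-428, miR-132, miR-223 and the rows nearest to tgu-miR-146c were added after values were seen. The calculation was tested on simulated data. Alternatives were other scalings, filters, folds and pseudocounts. Scaling factors came from edgeR 4.0.16 (TMM) and DESeq2 1.42.0 in R 4.3.3 on rounded reads. Calculations used Python 3.11.15 with scipy 1.17.1, numpy 2.4.6 and pandas 2.3.3, and figures matplotlib 3.10.9. Genome positions were not analysed here.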

Additional observations from a re-analysis of the deposited data

Results flagged for a closer look

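After the authors' normalization, the sum of all 12 miR-146 rows lay on opposite sides of the uninjected library in the 2 depleted libraries, with a ratio of 0.663 (0.559 to 0.786) with Lhx1-AS and of 1.85 (1.63 to 2.10) with Fry-MO. Both counting intervals excluded 1, but with 1 library per condition the difference between the 2 was not tested. As a share of listed reads both depleted libraries lay above, at a ratio of 1.33 for Lhx1-AS (1.12 to 1.58) and of 2.18 for Fry-MO (1.92 to 2.48).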

How the results depend on the processing

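The ratio of miR-146b with Lhx1-AS, 0.467, became 0.937 scaled to listed reads, 0.890 without the miR-427 rows, 0.785 scaled to *Xenopus* reads, 0.975 scaled to miR-427 and 0.663 with all miR-146 rows summed. With Fry-MO, 0.313 became 0.443 scaled to mappable reads and 0.876 scaled to miR-427, and the sum of all rows turned it to 1.85. The ratio of Fry-MO to Lhx1-AS, 0.671, became 0.394, 0.317 and 0.333 under the first 3 of those scalings, 0.877 scaled to mappable reads and 2.79 for the sum. The forms of other names, at 2.53 with Lhx1-AS, became 5.07, 4.82 and 4.25 under the first 3. No scaling tried on them moved their Fry-MO value of 16.1 out of its interval, but scaling to miR-427 was not tried on them. The sum of all miR-146 rows with Lhx1-AS, 0.663, turned to 1.33 scaled to listed reads, 1.26 without the miR-427 rows, 1.12 scaled to *Xenopus* reads and 1.39 scaled to miR-427, and was 0.557 in raw reads. With Fry-MO, 1.85 became 2.18 scaled to listed reads, 1.54 to *Xenopus* reads, 2.62 to mappable reads, 1.48 with TMM, 1.49 with the median of ratios and 5.18 scaled to miR-427. Scaling to miR-427 and all scalings of the sum were chosen after seeing the data.

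The count of *Xenopus* rows called lower with Lhx1-AS, 5, became 0 scaled to listed reads with or without the miR-427 rows, 2 scaled to *Xenopus* reads, 3 to mappable reads, 10 with TMM, 9 with the median of ratios, 13 in raw reads, 10 without a filter, 14 at a fold of 1.5, 0 at 4 and 47 over all names. With Fry-MO, 9 became 3 scaled to mappable reads, 1 at a fold of 4 and 74 over all names. The counts over all names take in predicted sequences and are given without the number of rows compared, so they give no share. The share of miR-146b was 0.475% with Lhx1-AS, 0.158% with Fry-MO and 0.606% in uninjected tissue of *Xenopus* reads, and 0.345% with Lhx1-AS and 0.388% in uninjected tissue of listed reads without the miR-427 rows. Without a filter, at 50 reads and with a pseudocount of 10, the innate immune list's median log2 ratio was 0.75, 1.32 and 1.53 with Lhx1-AS and 1.501, 3.10 and 1.89 with Fry-MO. The blood list's was -0.19 at 50 reads with Lhx1-AS, and 2.48 without a filter and 3.43 with a pseudocount of 10 with Fry-MO. Changes in the divided reads of xtr-miR-146b could not be tried, and depth limits every row under 10 reads. No paired analysis was possible because each condition has 1 library.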
